A study of Mus musculus with 4 samples.

Results

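Adhesion G protein-coupled receptors were followed through the cells of the mouse Achilles tendon. The family was taken as every gene whose symbol is Adgr, a class letter and a number, which gave 27 genes of the 33696 listed. Single cells were profiled in 4 libraries, 1 per group. The adult injury library came from injured tendon of mice aged 6 to 8 weeks and the adult control library from uninjured tendon of mice of that age. The neonate injury and neonate control libraries came from injured and uninjured tendon at postnatal day 3. Tissue was digested with collagenase and DNase and the cells were captured in droplets. The labels name no strain, transgene or drug, and leave unstated the kind of injury, how long before harvest it was made, how many mice went into a library and their sex. With 1 library per group there was no test between groups. Intervals in square brackets are 95% intervals that cover counting error only, and no difference below has a replicate check.

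Adhesion receptors join a long extracellular region, often built of adhesion domains, to the membrane-spanning core of a G protein-coupled receptor. The extracellular region is cut close to the membrane in most members, and the piece that stays behind carries a tethered agonist that can switch the receptor on. Their ligands are mostly matrix proteins and proteins on the surface of other cells, so the family is known for sensing contact and tension. Members are known from endothelium, glia and myeloid cells, and Adgrg6 has been linked to the skeleton and to tendon and other matrix-rich tissue.

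The matrices held 38780 barcodes and 369063404 unique molecular identifiers (UMIs). After filtering and removal of likely doublets, 4454 adult injury, 5814 adult control, 13112 neonate injury and 9559 neonate control cells remained, with median depths between 5552.5 and 10338 UMIs. Cell classes were rebuilt from markers, with the family left out of the clustering. Tenocyte-like and fibroblast-like clusters were joined as the fibroblast lineage, and tenocyte-like cells, the cells that define the labelled tissue, numbered 125, 2234, 1339 and 927 in that order of libraries. Between 3 and 49 barcodes were shared by any 2 libraries. In the fibroblast lineage, Xist without Y-linked UMIs was found in 90.6%, 95.1%, 76.1% and 0.02% of the cells in that order, and Y-linked UMIs without Xist in 0.053%, 0%, 14.4% and 86.6%. Sex and age therefore cannot be told apart between the controls. The neonate libraries differ in sex for most cells, so in whole classes sex and neonatal injury cannot be told apart either. Ratios in cells with Y-linked UMIs alone are given for some genes. Levels are CPM, the UMIs of a gene scaled to the sum of all UMIs of a class in a library. They are compared for 1 gene at a time, between classes or libraries.

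Of the 27 genes, 18 reached 10 CPM in at least 1 named class with 50 or more cells. The other 9 were Adgra1, Adgrb1, Adgrb2, Adgrf1, Adgrf2, Adgrf3, Adgrf4, Adgrg4 and Adgrg7, all of which were detected. Their UMIs over all cells ranged from 12 for Adgrf1 to 641 for Adgrb2, and among classes with 50 or more cells in a library, with the fibroblast lineage taken whole, their highest CPM was 5.59, for Adgrb2 in Schwann-like cells of the neonate injury library. Tenocyte-like cells of the adult injury library taken alone had 7.14 CPM of Adgrb2. The 18 genes had their highest mean level in different named classes, with means over the libraries that held 50 or more cells of a class. Unnamed cells were left out of this ranking and numbered 429 in adult injury, 143 in adult control, 363 in neonate injury and 368 in neonate control. Adgrl4, Adgrf5, Adgrl2 and Adgrg1 were highest in endothelial-like cells. Adgrg6, Adgrl3 and Adgrb3 were highest in Schwann-like cells. Adgrd1 was highest in the fibroblast lineage, Adgrg2 in synovial lining-like cells and Adgra3 in chondrocyte-like cells. Synovial lining-like cells reached 50 in the neonate libraries alone and chondrocyte-like cells in the neonate control alone, so these means cover unlike sets of libraries. Adgre1 and Adgre4 were highest in macrophage-like cells, Adgre5 and Adgrv1 in neutrophil-like cells, and Adgrg5 in T or NK-like cells. Adgra2 and Adgrg3 were highest in lymphatic endothelial-like cells and Adgrl1 in mural-like cells. The highest class was the same for 12 of the 18 genes with a stricter cell filter, with doublets kept, at clustering resolution 2, with each cell gated on its markers and after thinning to 2000 UMIs. The exceptions were Adgrv1, Adgre5, Adgrd1, Adgrg2, Adgre4 and Adgrg5, which moved to another class in at least 1 of them.

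**Figure D1:**
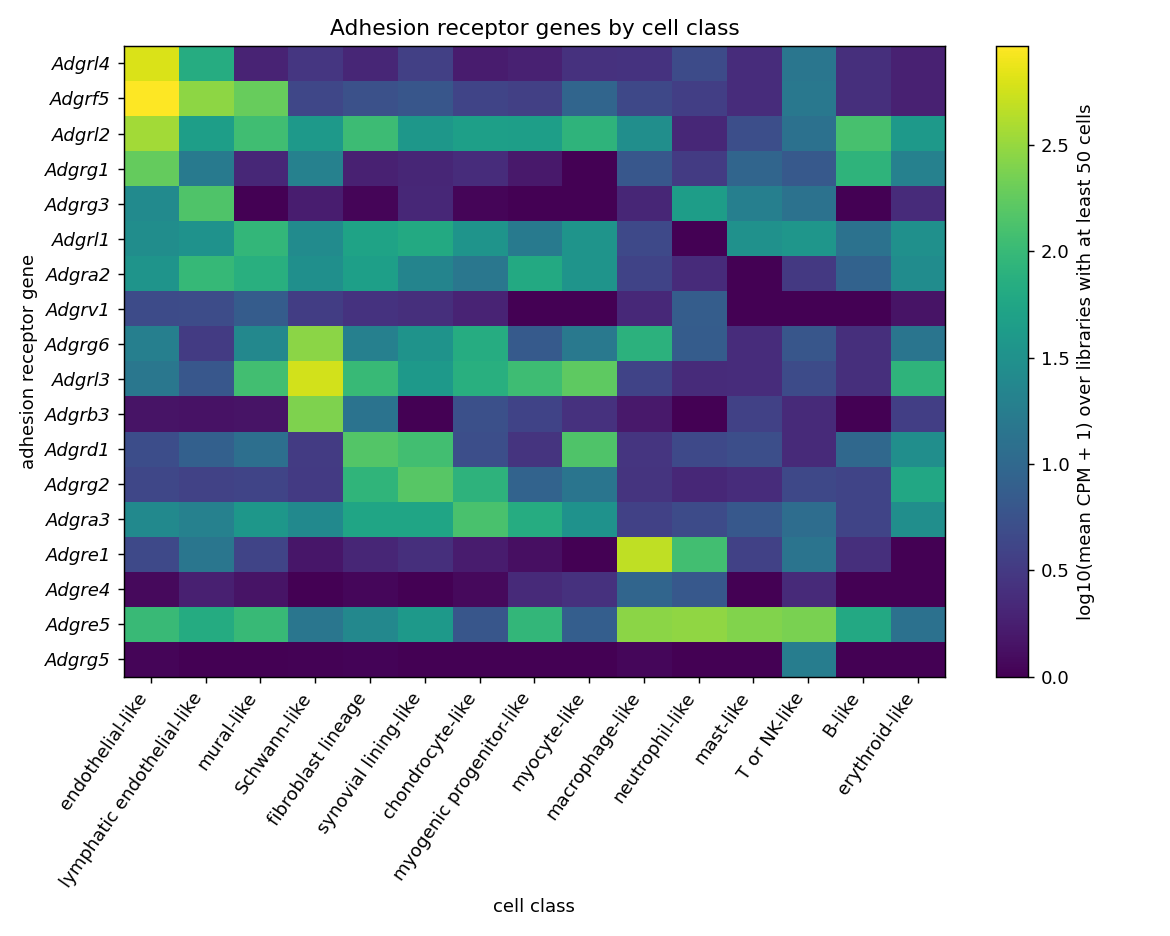
Mean level of the 18 genes (rows) in each cell class (columns), as log10 of the mean CPM plus 1 over the libraries with at least 50 cells of the class. Bright cells mark Adgrl4 and Adgrf5 in endothelial-like cells, Adgrl3, Adgrg6 and Adgrb3 in Schwann-like cells and Adgre1 in macrophage-like cells, while Adgrl2, Adgrl1 and Adgra3 are spread over many classes.

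The vascular receptors are described first. Adgrl4, an orphan receptor of endothelium that is tied to vessel sprouting, stood at 658 CPM [636, 680.0] in adult injury, 1004 [979, 1029] in adult control, 511 [495, 527] in neonate injury and 328 [316, 341] in neonate control. It was detected in 81.9% of adult injury, 89.2% of adult control, 83.4% of neonate injury and 82.6% of neonate control endothelial-like cells, whose median depths were 6284.5, 5552, 5373.5 and 10058 UMIs. The fibroblast lineage, which is not known for Adgrl4 and had median depths of 20547, 11510, 6204 and 10786.5 UMIs, had it in 2.65% of adult injury, 1.25% of adult control, 0.477% of neonate injury and 0.880% of neonate control cells. Endothelial-like cells stood far above the stroma in all 4 libraries. Lymphatic endothelial-like cells were next, at 73.9 CPM [59.6, 90.6] in adult injury, 77.0 [66.0, 89.4] in adult control and 51.0 [36.7, 68.9] in neonate injury.

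Adgrf5, known from surfactant control in the lung and from vessels, had 993 CPM [967, 1021] in adult injury, 1255 [1227, 1283] in adult control, 725 [706, 744] in neonate injury and 727 [708, 746] in neonate control in endothelial-like cells. Lymphatic endothelial-like cells held 283 CPM [255, 315] in adult injury, 329 [306, 354] in adult control and 256 [223, 293] in neonate injury. Both genes were detected together in 78.8% [74.8, 82.4] of adult injury, 86.5% [84.0, 88.8] of adult control, 77.5% [74.8, 80.0] of neonate injury and 78.7% [74.6, 82.5] of neonate control endothelial-like cells. Only 2.55% to 5.88% of endothelial-like cells per library had a UMI of neither.

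Adgrl2, a latrophilin that binds teneurins and FLRT proteins, had 405 CPM [388, 423] in adult injury, 272 [259, 286] in adult control, 416 [402, 431] in neonate injury and 330.3 [318, 343] in neonate control in endothelial-like cells. It was also present in most other classes, and in the fibroblast lineage it had 79.8 CPM [77.2, 82.5] in adult injury, 99.1 [96.3, 102] in adult control, 112 [109.6, 115] in neonate injury and 137 [134, 139.9] in neonate control. Adgrg1, a receptor for collagen III and transglutaminase, had 242 CPM [228, 255] in adult injury, 253 [241, 266] in adult control, 123 [115, 131] in neonate injury and 111 [104, 119] in neonate control in endothelial-like cells. Adult libraries were higher than neonate libraries, whether injured or not. By the mean over libraries with 50 or more cells of a class, B-like cells, which reached that in the neonate control library alone, were next for both genes, with 126 CPM [100.2, 156] of Adgrl2 and 84.9 [64.1, 110.2] CPM of Adgrg1.

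Endothelial-like cells fell into 3 clusters. Cluster 2, led by Timp4 and Ccdc85a and made mostly of adult control and adult injury cells, had 1118 CPM of Adgrl4, 1599 CPM of Adgrf5 and 339 CPM of Adgrg1. Cluster 0, led by Prnd and Gpihbp1 and made mostly of neonate cells, had 485 CPM, 750.2 CPM and 134 CPM of the same genes. Cluster 13, led by Selp and Vwf, had 627 CPM, 908 CPM and 181 CPM. Adgrl2 was lowest where these 3 were highest, with 260.1 CPM in cluster 2, 367 CPM in cluster 0 and 455 CPM in cluster 13.

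Start-site sequences are shown for Adgrl4 and Adgrl2, which are neighbours with no protein-coding gene between them, and for Adgrf5, since all 3 genes were highest in endothelial-like cells. They are RefSeq promoters of build GRCm38.p6, from 250 bases before to 50 bases after a start, and 20 of the 27 genes have at least 1. The deposited counts were made on GRCm39, so these coordinates are not those of the deposited files. Capitals mark GGAAGT or its reverse complement ACTTCC, a core that ETS factors of endothelium are known to bind.
Adgrl4, chr3:151437632-151437931, plus strand: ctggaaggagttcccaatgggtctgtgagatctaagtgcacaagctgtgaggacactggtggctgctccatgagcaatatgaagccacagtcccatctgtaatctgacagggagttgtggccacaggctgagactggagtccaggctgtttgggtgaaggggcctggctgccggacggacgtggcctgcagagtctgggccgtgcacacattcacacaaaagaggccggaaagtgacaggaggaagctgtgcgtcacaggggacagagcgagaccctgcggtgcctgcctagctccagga
Adgrl2, chr3:148954586-148954885, minus strand: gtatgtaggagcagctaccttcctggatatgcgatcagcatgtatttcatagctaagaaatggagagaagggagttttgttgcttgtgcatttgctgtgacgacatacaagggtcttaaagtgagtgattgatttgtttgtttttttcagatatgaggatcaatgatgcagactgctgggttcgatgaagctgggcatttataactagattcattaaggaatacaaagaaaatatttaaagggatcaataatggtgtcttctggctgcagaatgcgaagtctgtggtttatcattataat
Adgrf5, chr17:43360181-43360480, plus strand: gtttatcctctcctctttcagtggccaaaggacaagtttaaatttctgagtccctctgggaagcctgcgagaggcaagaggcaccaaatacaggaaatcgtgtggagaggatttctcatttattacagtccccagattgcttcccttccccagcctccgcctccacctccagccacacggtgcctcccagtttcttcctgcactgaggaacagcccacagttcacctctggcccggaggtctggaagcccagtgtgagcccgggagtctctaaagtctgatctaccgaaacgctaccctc
Adgrf5, chr17:43389216-43389515, plus strand: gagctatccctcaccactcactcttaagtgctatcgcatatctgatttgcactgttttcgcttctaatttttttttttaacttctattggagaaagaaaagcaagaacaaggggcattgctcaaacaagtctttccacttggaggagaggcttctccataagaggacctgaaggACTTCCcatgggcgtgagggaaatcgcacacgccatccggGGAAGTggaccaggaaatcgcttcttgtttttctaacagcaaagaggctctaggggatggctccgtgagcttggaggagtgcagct
The second Adgrf5 start held 2 matches and the other 3 windows held none. Over all 32851 RefSeq promoters 23.8% held the motif on either strand, and 5 of the 24 windows of the family did. The SOX core ACAAAG was in 4 of the 24 windows against 18.7% of all promoters, and the GATA core AGATAA was in 3 against 11.2%. No motif contains another, and a match describes letters, not binding.

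Neighbouring members were also highest in different classes. Adgrg5, Adgrg1 and Adgrg3 follow each other on chromosome 8 with no protein-coding gene between them in the RefSeq table. Adgrg3, a receptor known from granulocytes and lymphatic endothelium, had 179.9 CPM [157, 205] in adult injury, 84.1 [72.6, 97.0] in adult control and 159 [133, 189] in neonate injury in lymphatic endothelial-like cells. In endothelial-like cells Adgrg3 had 45.9 CPM [40.3, 52.1] in adult injury, 21.6 [18.1, 25.6] in adult control, 22.5 [19.3, 26.1] in neonate injury and 10.9 [8.70, 13.4] in neonate control, below the lymphatic level in every library that held both. Adgrg5 had 29.0 CPM [16.6, 47.2] in adult injury and 4.96 [0.600, 17.9] in neonate injury in T or NK-like cells, from 16 and 2 UMIs, and its mean in every other named class with 50 or more cells was at or below 0.129 CPM. Unnamed cells held 22 of 46 Adgrg5 UMIs in adult injury, 18 of 22 in adult control, 13 of 25 in neonate injury and 1 of 8 in neonate control. Dendritic-like cells, fewer than 50, held 4 of the 25 in neonate injury. Adgre5 and Adgrl1 are another adjacent pair, and they differed in the same way, with Adgre5 highest in leukocytes and Adgrl1 in mural-like cells.

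Mural-like cells, the pericytes and smooth muscle cells around vessels, held Adgrl1, Adgra2, Adgrf5, Adgrl3 and Adgre5. Adgrl1, a latrophilin, had 92.0 CPM [78.9, 107] in adult injury, 109 [97.7, 121] in adult control, 104 [89.3, 119.7] in neonate injury and 56.1 [49.97, 62.8] in neonate control. Adgra2, which works with Reck to pass on Wnt7 signals in brain vessels, had 133 CPM [117, 150.0] in adult injury, 38.8 [32.2, 46.3] in adult control, 68.6 [57.0, 81.8] in neonate injury and 56.6 [50.5, 63.4] in neonate control. The 2 mural-like clusters differed. Cluster 27, led by Rgs5 and Higd1b, had 230.0 CPM of Adgrf5 and 134 CPM of Adgrl3, while cluster 28, led by Myh11 and Lmod1, had 12.3 CPM and 18.3 CPM. For Adgrl1 the order turned, with 61.4 CPM in cluster 27 and 123 CPM in cluster 28. Endothelial markers summed to 228, 238, 265 and 282 CPM in the mural-like cells of the adult injury, adult control, neonate injury and neonate control libraries, with none of the 8 markers at 0.

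**Figure D2:**
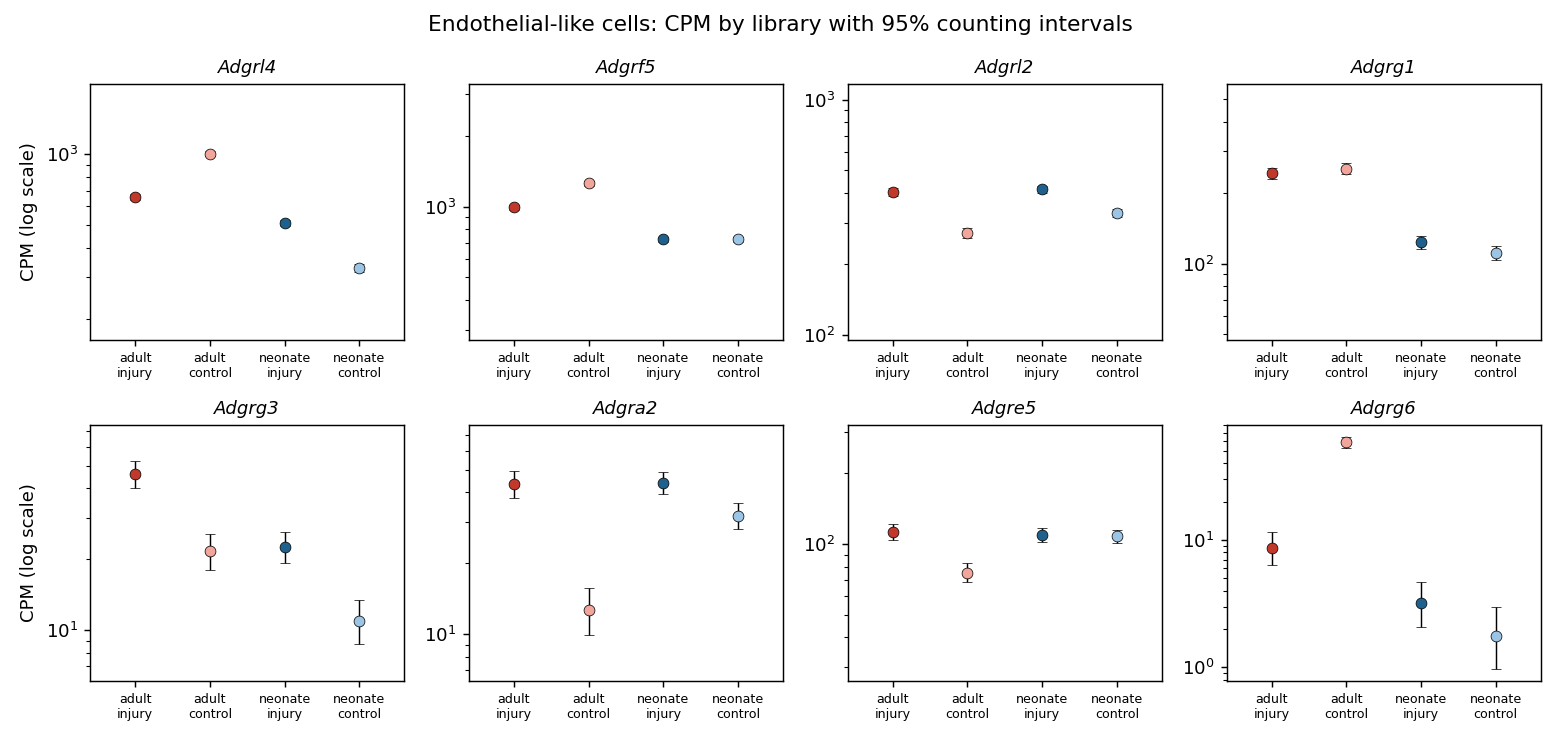
CPM (log axis) of 8 genes in endothelial-like cells of the 4 libraries, with points at the summed level and bars at the 95% Poisson interval of counting error. Adgrl4 and Adgrg1 lie higher in both adult libraries than in both neonate libraries, and Adgrg6 stands out in the adult control library at 58.7 CPM.

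Schwann cells, the glia of peripheral nerve, are the cells in which Adgrg6 is best known: it is required there for myelination. Schwann-like cells numbered 80 in the adult control, 1297 in the neonate injury and 543 in the neonate control library, with too few in the adult injury library to describe. Adgrg6 had 225 CPM [176, 284] in adult control, 333 [319, 348] in neonate injury and 293 [279, 306] in neonate control. It was detected in 47.5% of adult control, 60.4% of neonate injury and 80.3% of neonate control cells, at median depths of 3765, 3784 and 10668 UMIs. Mast-like cells of the neonate control, the class with the lowest mean level, had it in 1.28% of 78 cells at a median of 8703 UMIs. Thinned to 2000 UMIs per cell, it was found in 36.9% of adult control, 41.8% of neonate injury and 39.9% of neonate control Schwann-like cells.

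Adgrl3, a latrophilin of synapses, had 402 CPM [335, 479] in adult control, 876 [853, 901] in neonate injury and 450.1 [434, 467] in neonate control in the same cells. Adgrb3, which binds complement C1q-like proteins, had 219 CPM [170.1, 277] in adult control, 153 [143, 163] in neonate injury and 358 [344, 373] in neonate control. All 3 genes were higher in cluster 25, led by Cdh19 and Grik2, than in cluster 38, with Mbp and Pmp2 among its leading genes. Adgrl3 stood at 903 CPM in cluster 25 and 158 CPM in cluster 38, Adgrb3 at 376 CPM and 28.6 CPM, and Adgrg6 at 386 CPM and 161 CPM. Cluster 38 thus held all 3 at a lower level.

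In the stroma, Adgrd1, a receptor with the ligands Ptk7 and Plxdc2, had 189.7 CPM [186, 194] in adult injury, 157 [153, 161] in adult control, 112 [109, 115] in neonate injury and 126 [123, 129] in neonate control in the fibroblast lineage. Within the lineage it was uneven: cluster 16, led by Akr1c18 and Wnt2, had 503 CPM and cluster 26, led by Pi16 and Dact2, had 476 CPM, while the tenocyte-like clusters 9 and 22, led by Tnmd and by Kera, had 4.18 CPM and 9.01 CPM. Tenocyte-like cells as a whole had 93.4 CPM [79.9, 109] in adult injury, 29.8 [27.8, 31.9] in adult control, 6.72 [5.07, 8.72] in neonate injury and 6.87 [5.29, 8.78] in neonate control, against 194 CPM [189.7, 198] in adult injury, 335 [326, 343] in adult control, 131 [128, 134] in neonate injury and 149 [146, 153] in neonate control for fibroblast-like cells. Adgrd1 was therefore a gene of fibroblast-like more than of tenocyte-like cells in all 4 libraries.

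Adgrl2 and Adgra3 leaned the other way. Adgrl2 had 149 CPM [132, 168] in adult injury, 146 [141, 151] in adult control, 170.3 [162, 179] in neonate injury and 217 [207, 226] in neonate control in tenocyte-like cells, against 76.9 CPM [74.3, 79.6] in adult injury, 34.0 [31.4, 36.7] in adult control, 102 [99.0, 105] in neonate injury and 122 [119, 125] in neonate control in fibroblast-like cells. Adgra3, a relative of Adgra2 tied to cell polarity, had 93.9 CPM [80.4, 109] in adult injury, 60.7 [57.7, 63.7] in adult control, 114 [107, 122] in neonate injury and 101 [95.03, 108] in neonate control in tenocyte-like cells, against 44.8 CPM [42.8, 46.9] in adult injury, 34.0 [31.4, 36.7] in adult control, 58.6 [56.4, 60.9] in neonate injury and 45.5 [43.7, 47.5] in neonate control in fibroblast-like cells. Tenocyte-like cells were higher for both genes in all 4 libraries. In chondrocyte-like cells of the neonate control Adgra3 had 129.8 CPM [123, 137], and myogenic progenitor-like cells had between 67.3 and 68.3 CPM in the 3 libraries that held 50 or more of them.

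Adgrg2, known from fluid handling in the epididymis, had 61.5 CPM [59.2, 63.8] in adult injury, 77.2 [74.7, 79.8] in adult control, 135 [132, 138] in neonate injury and 73.1 [70.9, 75.3] in neonate control in the fibroblast lineage and 110.2 CPM [81.5, 146] in neonate injury and 199 [176, 224] in neonate control in synovial lining-like cells. The lineage was thus the higher in neonate injury and synovial lining-like cells in neonate control. Of the lineage clusters with at least 100 cells, cluster 12.0 was highest, at 310.1 CPM, and 8.0 held none among its 114 cells.

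Adgre1, whose protein is the classical surface antigen of mouse macrophages, was not among the markers that named the classes. It had 575 CPM [559, 591] in adult injury, 377 [349, 405] in adult control, 589.6 [571, 609] in neonate injury and 398 [377, 419] in neonate control in macrophage-like cells, and was detected in 85.8% of adult injury, 89.2% of adult control, 87.3% of neonate injury and 92.4% of neonate control cells. The fibroblast lineage had it in 6.95% of adult injury, 0.293% of adult control, 0.377% of neonate injury and 0.540% of neonate control cells. Macrophage-like cells of the injured tendons were higher than those of the controls at both ages, with a log2 ratio of 0.61 [0.50, 0.72] in adults and 0.57 [0.48, 0.66] in neonates.

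Adgre5, which binds Cd55 and Thy1, was shared by leukocytes. It had 198 CPM [189, 207] in adult injury, 522 [489.7, 555] in adult control, 219 [208, 231] in neonate injury and 192 [178, 207] in neonate control in macrophage-like cells, 318 CPM [264, 379] in adult injury and 269 [223, 322] in neonate control in neutrophil-like cells, 211 CPM [174, 253] in adult injury and 258 [211, 312] in neonate injury in T or NK-like cells and 255 CPM [219, 295] in mast-like cells of the neonate control. Adult control macrophage-like cells stood above the other 3 libraries.

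Adgre4, a myeloid relative of Adgre1, had 7.83 CPM [6.08, 9.92] in adult injury, 3.18 [1.17, 6.92] in adult control, 21.6 [18.1, 25.5] in neonate injury and 0.856 [0.176, 2.50] in neonate control in macrophage-like cells, from 68, 6, 138 and 3 UMIs. These were 39.8%, 11.3%, 58.0% and 3.61% of all Adgre4 UMIs of the library. Unnamed cells held 52.0% of them in adult injury, 79.2% in adult control, 37.0% in neonate injury and 73.5% in neonate control. Adgrv1, a very large receptor of hair cells and neurons, stayed at or below 13.9 CPM in every named class and library with 50 or more cells. Neutrophil-like cells, its highest class by the mean, held 5 UMIs of it in adult injury and 0 in neonate control. Mural-like cells of the adult injury library held 27.

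**Figure D3:**
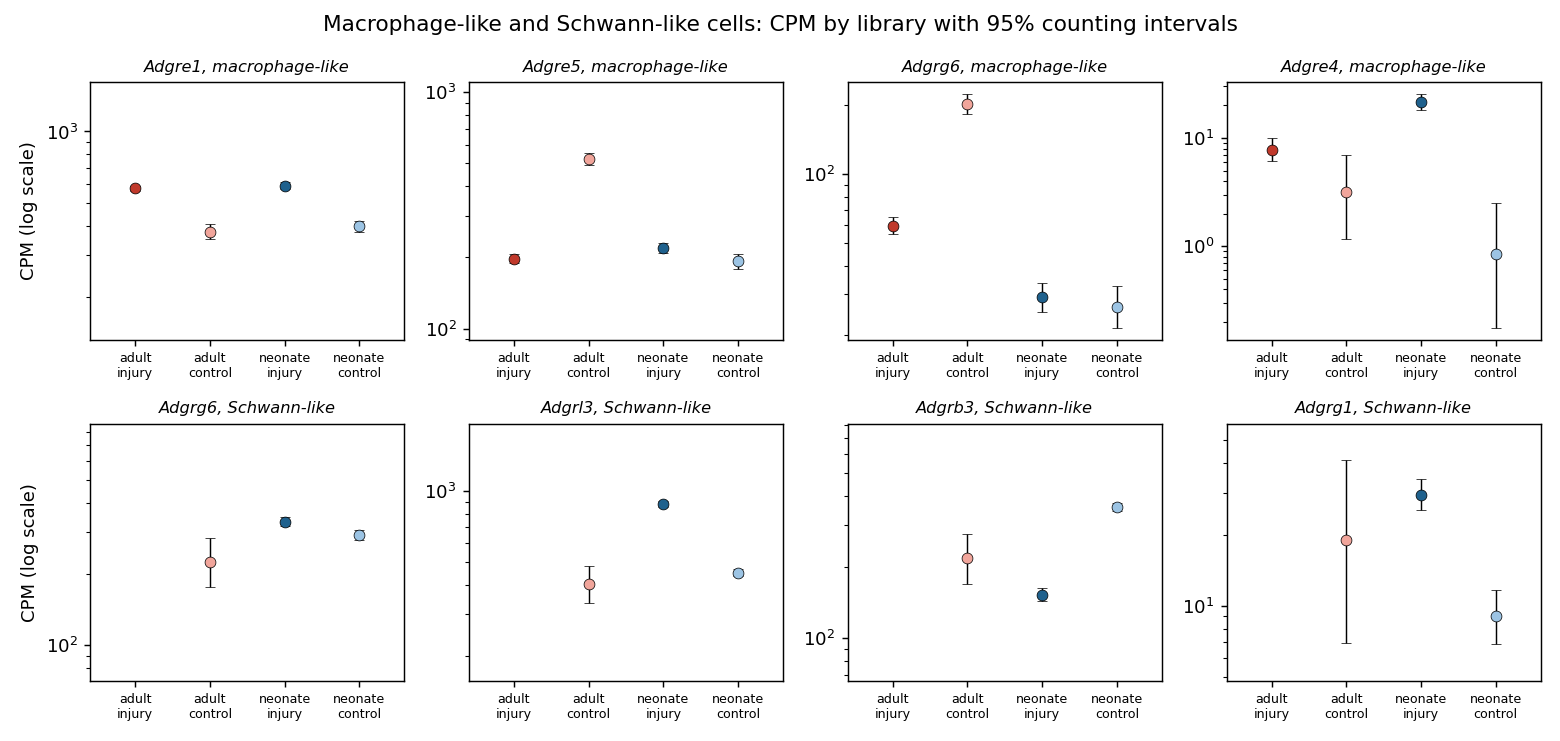
CPM (log axis) by library in macrophage-like cells (upper row) and Schwann-like cells (lower row), with 95% Poisson intervals of counting error; the adult injury library held too few Schwann-like cells and has no point. Adgre5 and Adgrg6 stand highest in macrophage-like cells of the adult control, and Adgre4 in those of the neonate injury library.

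Age was read from the control libraries, to ask which receptor genes differ between adult and neonatal tendon without injury. A gene counted as apart at 2-fold or more among genes with at least 50 UMIs in the class over both libraries. Of the 27 genes, 18 had this many UMIs in the fibroblast lineage and 6 were apart, where 29.6% of all genes were, 3 higher (as were 12.5% of all genes) and 3 lower (as were 17.1%), so the share was close to the background. The median log2 ratio was -0.12 over these 18 genes and -0.099 over all genes. Adgrl3 was lower in adults, with 4.03 CPM in adult control and 118 CPM in neonate control cells (log2 ratio -4.87 [-5.09, -4.66]). Adgrb3 had 0.541 CPM in adult control and 15.3 CPM in neonate control cells (-4.80 [-5.46, -4.25]) and Adgrg6 had 4.70 CPM in adult control and 30.3 CPM in neonate control cells (-2.69 [-2.90, -2.49]). Adgre5 was higher in adults, with 37.7 CPM in adult control and 16.8 CPM in neonate control cells (1.17 [1.05, 1.28]). Adgrf4 and Adgrf2, adjacent genes of low level, were higher too, at 3.68 CPM in adult control and 0.121 CPM in neonate control cells for Adgrf4 and 0.996 CPM in adult control and 0.259 CPM in neonate control cells for Adgrf2. In tenocyte-like cells alone the ratio was -4.09 for Adgrl3, -3.67 for Adgrb3 and -1.32 for Adgrg6, and in fibroblast-like cells alone it was -4.25, -5.85 and -3.63. Adgre5 fell under 2-fold in both, at 0.80 and 0.74. No cluster of the lineage held 50 cells of both control libraries, so age and cluster cannot be told apart here. The 4 synovial lining markers, none at 0, summed to 7544 CPM in the lineage of the adult control and 53.1 CPM in that of the neonate control, and their part in these values was not tested.

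Among endothelial-like cells 5 of 11 genes were apart between adult and neonate control, against 28.2% of all genes, 4 higher (as were 17.2% of all genes) and 1 lower (as were 11.0%). The median log2 ratio was 0.79 over these 11 genes and 0.13 over all genes. Adgrl4 was higher in adults (1.61 [1.55, 1.68]), as was Adgrg1 (1.19 [1.07, 1.31]). Adgrg6 showed the greatest ratio of the 5, with 58.7 CPM in adult control and 1.77 CPM in neonate control cells (5.0 [4.29, 5.94]). Adgrl3 was higher too, with 16.9 CPM in adult control and 5.69 CPM in neonate control cells (1.56 [1.05, 2.10]). Adgra2 was lower in adults, with 12.6 CPM in adult control and 31.9 CPM in neonate control cells (-1.33 [-1.73, -0.97]). Most adult control cells were in cluster 2 (497 of 825) and most neonate control cells in cluster 0 (422 of 442). Within cluster 0 the log2 ratio was 1.32 [1.22, 1.42] for Adgrl4, 0.89 [0.69, 1.08] for Adgrg1, -1.05 [-1.80, -0.43] for Adgra2 and 7.04 [6.12, 8.36] for Adgrg6, from 209 and 8 UMIs. Adgrl3 had a ratio below 0 with clustering at resolution 2 and with the mean of single-cell CPM, and 3.52% of adult control and 7.92% of neonate control cells had a UMI of it.

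Macrophage-like cells had 3 of 4 genes apart with age, against 19.6% of all genes, 2 higher (as were 10.3% of all genes) and 1 lower (as were 9.3%). The median was 0.68 over these 4 genes and 0.056 over all genes. Adgrg6 was higher in adults, with 203 CPM in adult control and 26.5 CPM in neonate control cells (2.93 [2.6, 3.28]). It was detected in 69.5% of adult control and 20.3% of neonate control macrophage-like cells, at median depths of 11005 and 11542 UMIs. Adgre5 was higher as well, with 522 CPM in adult control and 192 CPM in neonate control cells (1.44 [1.30, 1.58]), and Adgrl2 was lower, with 17.0 CPM in adult control and 38.8 CPM in neonate control cells (-1.18 [-1.80, -0.63]). Cluster 3, led by Pf4 and Folr2, held 154 of 167 adult control and 280 of 301 neonate control cells, and within it the ratio of Adgrg6 was 2.75 [2.42, 3.11]. Adgre1 did not reach 2-fold, at -0.078 [-0.21, 0.053].

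Mural-like cells had 3 of 9 genes apart with age, against 23.3% of all genes, 2 higher (as were 10.4% of all genes) and 1 lower (as were 12.9%). The median was 0.31 over these 9 genes and -0.052 over all genes. Adgrg6 had 39.1 CPM in adult control and 11.4 CPM in neonate control cells (1.77 [1.32, 2.24]) and Adgrd1 10.6 CPM in adult control and 3.69 CPM in neonate control cells (1.5 [0.67, 2.40]), while Adgra3 was lower, with 15.4 CPM in adult control and 32.7 CPM in neonate control cells (-1.08 [-1.58, -0.62]). Within cluster 27 Adgrg6 had a ratio of 2.96 [2.42, 3.51] and within cluster 28 of 0.90 [0.021, 1.95]. Adgra3 stayed below 2-fold within both, at -0.42 [-1.17, 0.20] and -0.89 [-1.73, -0.047]. With each cell gated on its own markers Adgrd1 turned below 0. Adgrg6 was thus 2-fold or more higher in adult control macrophage-like, endothelial-like and mural-like cells and lower in the adult fibroblast lineage; its difference between classes was not tested.

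**Figure D4:**
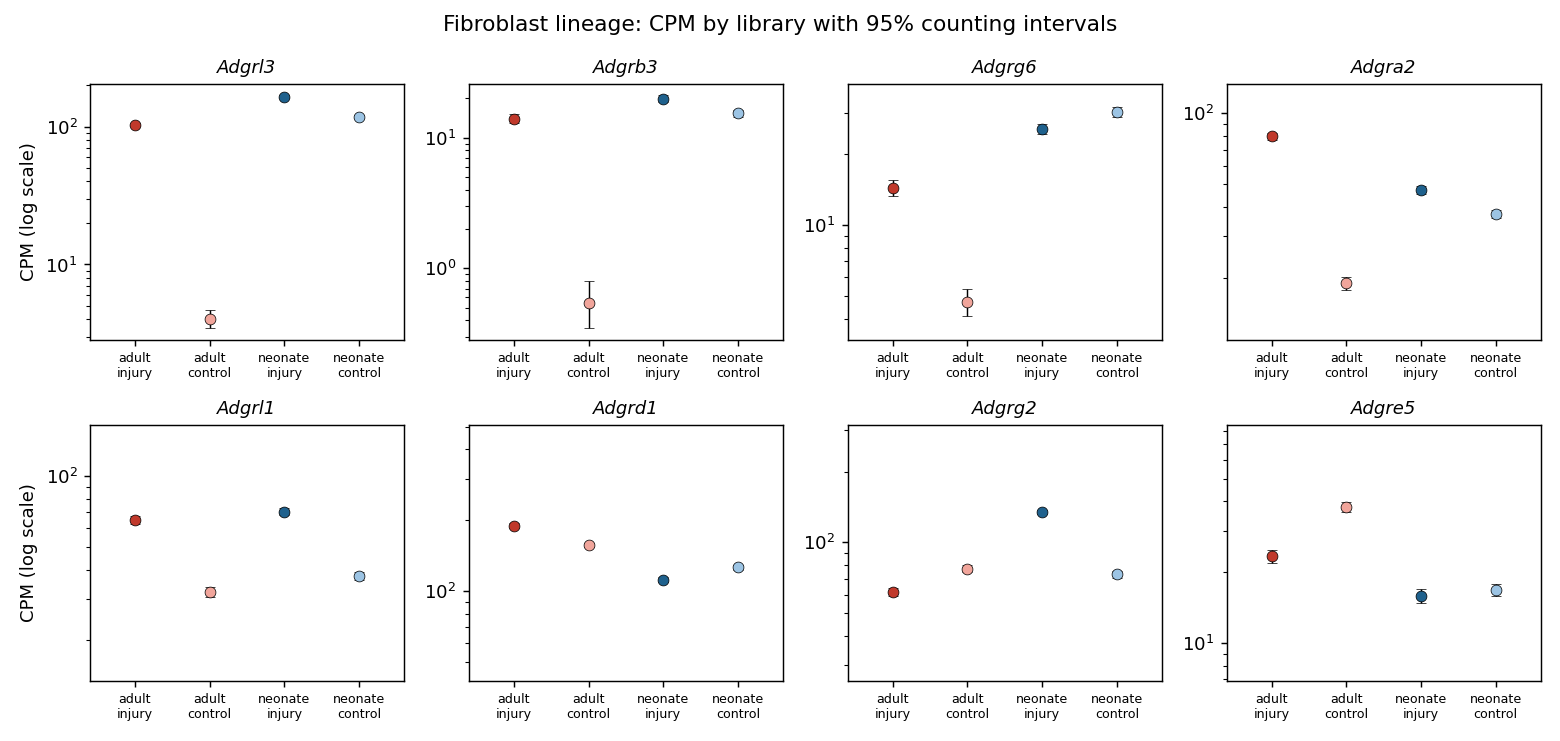
CPM (log axis) of 8 genes in the fibroblast lineage of the 4 libraries, with 95% Poisson intervals of counting error. With the lineage taken whole, the adult control library stands alone at a low level for Adgrl3 and Adgrb3, with 4.03 CPM and 0.541 CPM, and Adgrl1 is higher in both injured libraries than in both controls.

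Injury in adults was compared next. In the fibroblast lineage 8 of 19 genes were apart, 7 higher (16.8% of all genes) and 1 lower (15.1%), where 32.0% of all genes were apart either way. The median log2 ratio was 0.27 over these 19 genes and 0.03 over all genes. Adgrl3 had 103 CPM in adult injury and 4.03 CPM in adult control cells, a log2 ratio of 4.68 [4.47, 4.90], and Adgrb3 had 13.9 CPM in adult injury and 0.541 CPM in adult control cells, a ratio of 4.66 [4.11, 5.32]. The neonate libraries had 165 CPM in neonate injury and 118 CPM in neonate control cells of Adgrl3, so with the lineage taken whole the adult control alone was low. Adgra2 had 79.9 CPM in adult injury and 18.9 CPM in adult control cells (2.08 [1.97, 2.19]), Adgrg6 14.3 CPM in adult injury and 4.70 CPM in adult control cells (1.61 [1.38, 1.84]) and Adgrl1 65.1 CPM in adult injury and 32.1 CPM in adult control cells (1.02 [0.93, 1.11]). Adgra1, a brain-enriched orphan, had 5.05 CPM in adult injury and 0.411 CPM in adult control cells (3.58 [2.94, 4.38]), and Adgrf4 was lower, with 0.293 CPM in adult injury and 3.68 CPM in adult control cells (-3.60 [-4.59, -2.84]).

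The lineage was not made of the same clusters in both adult libraries. Cluster 6, led by Cxcl5 and Tnn, held 1239 of the 1885 adult injury cells and 3 of the 3753 adult control cells, while cluster 15, led by Angptl7 and Clu, held 18 and 1724. A cluster mostly of 1 library can be that library rather than a type. In tenocyte-like cells alone, 125 from the adult injury and 2234 from the adult control library, the ratios of Adgrl3 and Adgrb3 turned to -1.22 and -1.47, from 1 and 51 UMIs of Adgrl3 and 0 and 20 UMIs of Adgrb3. For Adgrb3 the 0 UMIs allow a level of up to 1.65 CPM, above the 0.743 CPM of the adult control, so a difference was not detectable at this depth. In fibroblast-like cells alone they were 3.94 and 5.67. Cluster 17, led by Inmt and Dpep1, was the only lineage cluster with 50 cells of both adult libraries. There the 72 adult injury cells had no Adgrl3 UMI and the 893 adult control cells had 72 UMIs, and 0 UMIs allow a level of up to 4.17 CPM, against 7.87 CPM in adult control. Adgra2 and Adgrl1 kept their direction in cluster 17, at 1.66 [1.23, 2.05] and 1.12 [0.63, 1.55], and so did both in tenocyte-like cells alone, at 2.06 and 1.64. Adgrg6 was at 0.79 in tenocyte-like cells alone and 2.44 in fibroblast-like cells alone, and Adgrf4 at -2.14 and -0.70.

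Adgre1 also passed 2-fold in the adult injury lineage, with 3.16 CPM in adult injury and 0.238 CPM in adult control cells (140 and 11 UMIs). Macrophage-like cells were 1102 of the 4454 adult injury and 167 of the 5814 adult control cells, and the 8 macrophage markers, none at 0, summed to 59.1 and 56.0 CPM in the lineage of the adult injury and adult control libraries; their part in the Adgre1 value was not tested.

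In macrophage-like cells of adults 4 of 7 genes were apart with injury, against 22.7% of all genes, 1 higher (as were 12.0% of all genes) and 3 lower (as were 10.7%). The median was 0.61 over these 7 genes and -0.12 over all genes. Adgrg6 was lower, with 59.8 CPM in adult injury and 203 CPM in adult control cells (-1.76 [-1.95, -1.57]), Adgre5 was lower, with 198 CPM in adult injury and 522 CPM in adult control cells (-1.40 [-1.51, -1.28]), and so was Adgrg1, with 4.14 CPM in adult injury and 9.01 CPM in adult control cells (36 and 17 UMIs). Adgre4 was higher, with 7.83 CPM in adult injury and 3.18 CPM in adult control cells (68 and 6 UMIs). Unnamed cells held 89 and 42 Adgre4 UMIs in the same libraries. Cluster 5, led by Mmp12 and Il1rn, held 788 of the 1102 adult injury and 13 of the 167 adult control cells, and cluster 3 held 314 and 154. Within cluster 3 the ratio was -1.42 [-1.72, -1.14] for Adgrg6 and -1.10 [-1.26, -0.94] for Adgre5, so both were lower there as well.

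In endothelial-like cells of adults 5 of 13 genes were apart with injury, against 15.8% of all genes, 4 higher (as were 9.25% of all genes) and 1 lower (as were 6.55%). The median was 0.57 over these 13 genes and 0.035 over all genes. Adgrg6 was lower, with 8.73 CPM in adult injury and 58.7 CPM in adult control cells (-2.74 [-3.23, -2.31]), and within clusters 0 and 13 it was lower too, at -5.95 [-7.38, -4.98] and -1.58 [-2.29, -0.97]. Adgra2 was higher, with 43.3 CPM in adult injury and 12.6 CPM in adult control cells (1.77 [1.40, 2.17]), and its ratio was between 1.31 and 1.66 within clusters 0, 2 and 13. Adgrg3 had 45.9 CPM in adult injury and 21.6 CPM in adult control cells (1.09 [0.78, 1.41]), with 1.99 [1.42, 2.56] in cluster 2 and 0.45 [-0.068, 1.01] in cluster 0. Adgrd1 had 11.4 CPM in adult injury and 1.96 CPM in adult control cells and Adgre1 12.1 CPM in adult injury and 0.327 CPM in adult control cells. The 8 fibroblast markers summed to 4844 CPM in adult injury and 848 CPM in adult control endothelial-like cells, with none at 0, and the 8 macrophage markers to 187 and 102 CPM, with 1 at 0 in the adult control; their part in the Adgra2, Adgrd1 and Adgre1 values was not tested. Adgrl4 fell short of 2-fold, at -0.61 [-0.67, -0.55].

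In mural-like cells of adults 4 of 9 genes were apart with injury, against 26.5% of all genes, 4 higher (as were 15.8% of all genes) and 0 lower (as were 10.7%). The median was 0.96 over these 9 genes and 0.17 over all genes. Adgrf5 had 417 CPM in adult injury and 86.2 CPM in adult control cells (2.27 [2.07, 2.48]), Adgrl3 204 CPM in adult injury and 51.9 CPM in adult control cells (1.97 [1.70, 2.24]), Adgra2 133 CPM in adult injury and 38.8 CPM in adult control cells (1.77 [1.46, 2.10]) and Adgra3 52.2 CPM in adult injury and 15.4 CPM in adult control cells (1.75 [1.25, 2.29]). Cluster 27 held 108 of the 125 adult injury and 153 of the 431 adult control cells. Within it Adgrf5 had a ratio of 0.63 [0.42, 0.84] and Adgrl3 of 0.28 [0.014, 0.57], both under 2-fold, as was Adgra3, at 0.95 [0.29, 1.71], while Adgra2 kept 1.95 [1.42, 2.57]. The 8 fibroblast markers, none at 0, summed to 13441 CPM in adult injury and 2126 CPM in adult control mural-like cells, and their part was not tested. Adgra2 was thus 2-fold or more higher in adult injury than in adult control cells of the fibroblast lineage, the endothelial-like and the mural-like class.

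Injury in neonates was read in the same classes and in Schwann-like and myogenic progenitor-like cells. In the fibroblast lineage 3 of 18 genes were apart, against 20.5% of all genes, 2 higher (as were 9.32% of all genes) and 1 lower (as were 11.1%), with a median of 0.13 over these 18 genes and -0.044 over all genes. All 3 genes had few UMIs: Adgra1 had 1.14 CPM in neonate injury and 0.534 CPM in neonate control cells (62 and 31 UMIs), Adgrf2 0.846 CPM in neonate injury and 0.259 CPM in neonate control cells (46 and 15 UMIs) and Adgrg1 0.258 CPM in neonate injury and 0.776 CPM in neonate control cells (14 and 45 UMIs). Adgrl1 and Adgrg2 were higher but fell short of 2-fold, at 0.91 [0.83, 0.98] and 0.88 [0.83, 0.94]. Adgrg2 lies on the X chromosome, and its ratio in cells with Y-linked UMIs alone is not given. Adgrl1 was above 0 in all 7 lineage clusters with 50 cells of both neonate libraries, with ratios from 0.28 to 1.42.

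Macrophage-like cells of neonates had 1 of 5 genes apart with injury, against 16.3% of all genes, 1 higher (as were 7.67% of all genes) and 0 lower (as were 8.62%), with a median of 0.19 over these 5 genes and -0.064 over all genes. It was Adgre4, with 21.6 CPM in neonate injury and 0.856 CPM in neonate control cells (4.44 [3.08, 6.95]). Within cluster 3 the ratio was 5.14 [3.57, 8.52], from 113 and 2 UMIs, and 7.48% of neonate injury and 0.997% of neonate control cells had a UMI, beside 0.101% and 0.2% in the fibroblast lineage, whose median depths were 6204 and 10786.5 UMIs against 4680.5 and 11542 in macrophage-like cells. In cells with Y-linked UMIs and without Xist UMIs alone, the ratio was 5.74. Of the 83 Adgre4 UMIs of the neonate control, 3 were in macrophage-like and 61 in unnamed cells. Of the 238 in neonate injury, 138 were in macrophage-like and 88 in unnamed cells. The ratio thus covers a part of the cells with Adgre4. Endothelial-like cells had 2 of 11 apart, against 12.6% of all genes, 2 higher (as were 8.34% of all genes) and 0 lower (as were 4.3%), with a median of 0.33 over these 11 genes and 0.13 over all genes. They were Adgrl3 with 18.2 CPM in neonate injury and 5.69 CPM in neonate control cells (1.67 [1.18, 2.19]) and Adgrg3 with 22.5 CPM in neonate injury and 10.9 CPM in neonate control cells (1.04 [0.67, 1.44]). Neither call held throughout: Adgrl3 was at 0.89 at resolution 2 and 0.74 with cells gated singly, and Adgrg3 at 0.91 when centred, 0.79 when gated, 0.56 after thinning and 0.077 by the mean of single-cell CPM. Mural-like cells had 1 of 8 apart, against 11.2% of all genes, 1 higher (as were 6.82% of all genes) and 0 lower (as were 4.36%), with a median of 0.57 over these 8 genes and 0.10 over all genes. It was Adgrl3 with 151 CPM in neonate injury and 62.9 CPM in neonate control cells (1.26 [1.02, 1.49]), and within clusters 27 and 28 its ratio was 1.22 [0.97, 1.47] and 1.82 [1.09, 2.58].

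Schwann-like cells of neonates had 3 of 10 genes apart with injury, against 14.1% of all genes, 2 higher (as were 7.11% of all genes) and 1 lower (as were 6.99%). The median was 0.28 over these 10 genes and 0.07 over all genes. Adgrb3 was lower, with 153 CPM in neonate injury and 358 CPM in neonate control cells (-1.23 [-1.34, -1.12]). Adgrg1 was higher, with 29.5 CPM in neonate injury and 9.02 CPM in neonate control cells (1.70 [1.27, 2.16]), and Adgre5 was higher, with 17.1 CPM in neonate injury and 7.94 CPM in neonate control cells (1.10 [0.61, 1.62]). Adgrl3 came just short, at 0.96 [0.90, 1.03], and Adgrg6 was close to level, at 0.19 [0.096, 0.28]. In cluster 25 Adgrb3 had -1.24 [-1.35, -1.12] and Adgrl3 1.05 [0.98, 1.11], and in cluster 38 they had -0.013 [-0.60, 0.57] and 0.45 [0.23, 0.67]. The lower Adgrb3 was therefore measured in cluster 25, and the interval in cluster 38 spans 0. Among cells with Y-linked and without Xist UMIs Adgrb3 was at -0.84, Adgre5 at 0.75 and Adgrg1 at 1.76. The 8 macrophage markers, none at 0, summed to 45.9 CPM in neonate injury and 22.9 CPM in neonate control Schwann-like cells, and the 8 endothelial markers, none at 0, to 52.9 and 43.6 CPM, and their part in the Adgre5 and Adgrg1 values was not tested.

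Myogenic progenitor-like cells of neonates had 3 of 8 genes apart with injury, against 12.6% of all genes, 2 higher (as were 6.14% of all genes) and 1 lower (as were 6.43%). The median was 0.047 over these 8 genes and 0.044 over all genes. Adgre5 had 107 CPM in neonate injury and 30.5 CPM in neonate control cells (1.81 [1.51, 2.10]), Adgrl1 24.7 CPM in neonate injury and 11.2 CPM in neonate control cells (1.16 [0.56, 1.71]) and Adgrg6 5.08 CPM in neonate injury and 12.5 CPM in neonate control cells (-1.22 [-2.55, -0.26]).

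The injury ratios of the 2 ages were then set against each other, as the adult log2 ratio minus the neonate one. A difference of 1 or more was reached by 11 of 18 genes in the fibroblast lineage (33.6% of all genes), 4 of 5 in macrophage-like (23.3%), 3 of 10 in endothelial-like (24.8%) and 6 of 8 in mural-like cells (28.3%). The widest in the lineage were Adgrb3, at 4.28 [3.70, 4.87], and Adgrl3, at 4.19 [3.98, 4.41], followed by Adgre1, at 3.48 [2.34, 4.62], and Adgra1, at 2.50 [1.59, 3.41]. Adgra2 had 1.74 [1.61, 1.88] in the lineage, 1.31 [0.87, 1.75] in endothelial-like and 1.49 [1.06, 1.93] in mural-like cells. Adgrg6 had 1.85 [1.60, 2.09] in the lineage and -1.90 [-2.30, -1.49] in macrophage-like cells, the opposite sign. Adgrl1 differed little in the lineage, at 0.11 [-0.0074, 0.23], as did Adgre1 in macrophage-like cells, at 0.041 [-0.10, 0.18], and Adgrg3 in endothelial-like cells, at 0.041 [-0.44, 0.52]. In tenocyte-like cells alone the adult ratios of Adgrb3 and Adgrl3 turned below 0, as given above. The adult libraries held different lineage clusters, so cluster make-up and injury cannot be told apart for either gene. The part of macrophage markers in the lineage value of Adgre1 was not tested. Time from injury to harvest is not given for either age, so age and time after injury cannot be told apart.

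**Figure D5:**
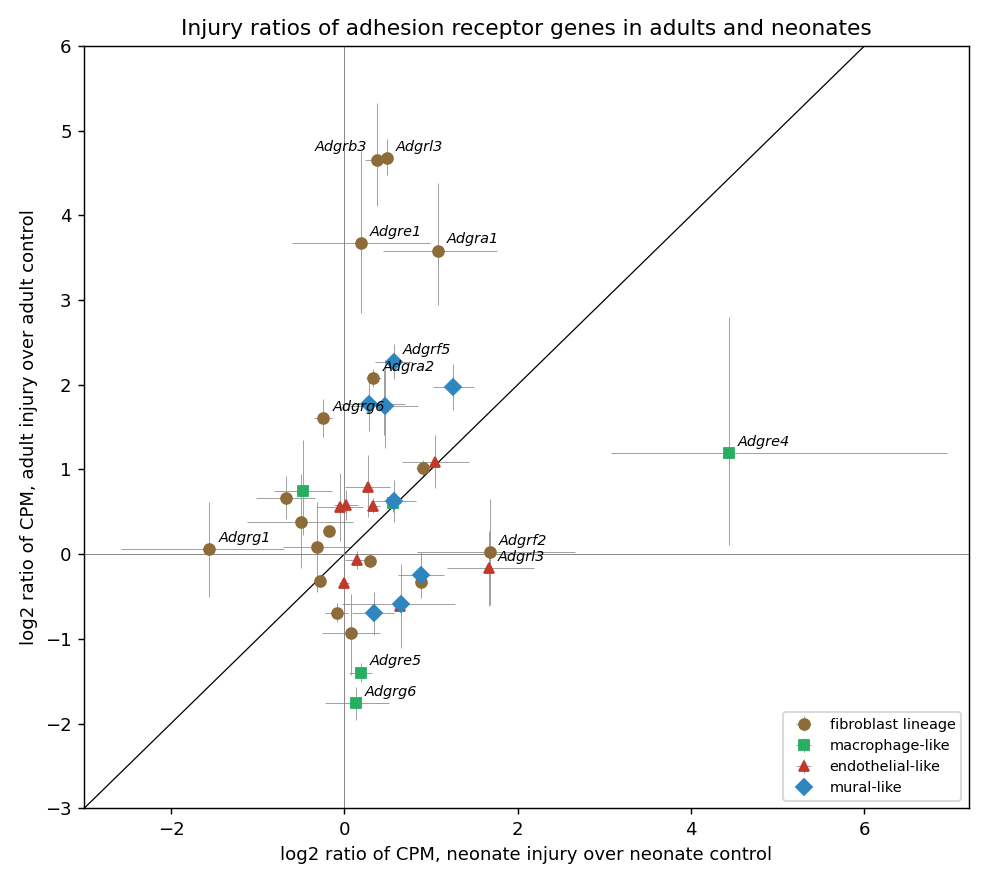
Log2 ratio of CPM of injury over control in adults (vertical axis) against that in neonates (horizontal axis) for each gene and class with at least 50 UMIs in both comparisons, with 95% intervals of counting error; the diagonal marks equal ratios and genes 1.5 or more apart are named. With the lineage taken whole, Adgrl3 and Adgrb3 of the fibroblast lineage lie at 4.68 and 4.66 in adults and at 0.49 and 0.37 in neonates. Adgre4 of macrophage-like cells lies to the right, at 4.44 in neonates.

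Ligands, partners and relatives of the family were read from a list of 35 genes. In the fibroblast lineage with adult injury 4 of 25 genes with at least 50 UMIs were 2-fold or more higher (16.8% of all genes) and 12 lower (15.1%). Their median log2 ratio was -0.72. Of the 4 ligands of Adgrg6, 3 were lower by this rule: Lama2, a laminin chain, had 117 CPM in adult injury and 456 CPM in adult control cells, Col4a1 86.2 CPM in adult injury and 260.0 CPM in adult control cells and Col4a2 58.8 CPM in adult injury and 195 CPM in adult control cells, while Prnp did not reach 2-fold, at -0.48 [-0.52, -0.44]. Col3a1, the collagen III ligand of Adgrg1, was higher, with 17590.3 CPM in adult injury and 2669 CPM in adult control cells. The ligands of Adgre5 split, with Thy1 at 170.2 CPM in adult injury and 54.7 CPM in adult control cells and Cd55 at 105 CPM in adult injury and 447 CPM in adult control cells. The ligands of Adgrd1 split as well, with Ptk7 at 70.1 CPM in adult injury and 10.6 CPM in adult control cells and Plxdc2 at 383 CPM in adult injury and 1361 CPM in adult control cells. Reck, the partner of Adgra2, was lower, with 27.5 CPM in adult injury and 134 CPM in adult control cells, while Adgra2 itself was higher. Also lower were Tenm2, Tenm4, Flrt1, C1ql3, Elmo1 and Celsr2, and Elmo3 was higher, from 38 and 13 UMIs. These partner values, and those with age below, are for the lineage taken whole. They are not given for tenocyte-like cells alone, fibroblast-like cells alone or single clusters. The libraries compared held different lineage clusters, so cluster make-up cannot be told apart from injury or age in them.

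With age the lineage had 6 of 25 of these genes higher (12.5% of all genes) and 5 lower (17.1%). Higher in adult control were Flrt1, Cd55, Tgm2, Elmo1, Plxdc2 and Celsr2, and lower were Tenm1, Flrt3, Col4a1, Col3a1 and Ptk7. Tenm1, a teneurin ligand of latrophilins, had 0.628 CPM in adult control and 14.98 CPM in neonate control cells. With neonatal injury 5 of 25 were higher (9.32% of all genes), namely Tenm2, Thy1, Rtn4r, Rtn4rl1 and Celsr2, and 1 was lower (11.1%), Col4a1. Thy1 had 106 CPM in neonate injury and 34.7 CPM in neonate control cells, a ratio of 1.62 [1.54, 1.69] beside 1.64 [1.57, 1.70] in adults.

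In macrophage-like cells Flrt3, a latrophilin ligand, had 90.8 CPM in adult injury and 0.530 CPM in adult control cells (789 and 1 UMIs), and 9 of 14 list genes were higher (12.0% of all genes) and 1 lower (10.7%) with adult injury. The higher ones were Tenm3, Flrt2, Flrt3, Thy1, Col4a1, Col4a2, Col3a1, Tgm2 and Elmo2, and the lower one was Elmo1. The 8 fibroblast markers, Col3a1 among them and none at 0, summed to 2095 and 537 CPM in adult injury and adult control macrophage-like cells, and their part in the collagen and Thy1 values was not tested. Tgm2, a transglutaminase, had 249 CPM in adult injury and 29.1 CPM in adult control cells, and 58.7 CPM in neonate injury and 11.4 CPM in neonate control cells. With age 2 of 11 were higher (10.3% of all genes), Tgm2 and Plxdc2, and 5 lower (9.3%), Flrt3, Col4a1, Col4a2, Lama2 and Col3a1. With neonatal injury 3 of 14 were higher (7.67%), Flrt2, Tgm2 and Plxdc2, and 2 lower (8.62%), Lama2 and Ptk7.

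In endothelial-like cells 6 of 18 list genes were higher (9.25% of all genes) with adult injury, namely Tenm3, Thy1, Col4a1, Col4a2, Col3a1 and Ptk7, and 1 lower (6.55%), Cd55. Col4a1 was at 2883 CPM in adult injury and 777 CPM in adult control cells. With neonatal injury 3 of 18 were higher (8.34%) and 0 lower (4.3%) by this 2-fold rule: Flrt2, Thy1 and Rtn4rl1. With age 5 of 18 were higher (17.2%), Cd55, Lama2, Tgm2, Rtn4rl1 and Celsr1, and 4 lower (11.0%), Col4a1, Col4a2, Col3a1 and Ptk7.

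In mural-like cells 8 of 15 list genes were higher (15.8% of all genes) with adult injury, namely Tenm3, Thy1, Col4a1, Col4a2, Col3a1, Elmo2, Ptk7 and Plxdc2, and 1 lower (10.7%), Tgm2. Thy1 was at 726 CPM in adult injury and 34.3 CPM in adult control cells, beside the fibroblast marker sums given above for these cells. With neonatal injury 3 of 16 were higher (6.82%), Thy1, Tgm2 and Rtn4rl1, and 1 lower (4.36%), Tenm4. With age 2 of 16 were higher (10.4%), Lama2 and Tgm2, and 6 lower (12.9%), Tenm3, Tenm4, Thy1, Col4a1, Col3a1 and Ptk7.

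In Schwann-like cells of neonates 2 of 22 list genes were higher with injury (7.11% of all genes), Tenm1 and Flrt1, and 3 lower (6.99%), Flrt2, C1ql3 and Ptk7. C1ql3, of the C1q-like ligands of Adgrb3, had 72.2 CPM in neonate injury and 187 CPM in neonate control cells (-1.37 [-1.53, -1.21]), beside the lower Adgrb3, and Tenm1 had 53.2 CPM in neonate injury and 13.8 CPM in neonate control cells (1.94 [1.60, 2.30]). In myogenic progenitor-like cells of neonates 0 of 14 were 2-fold apart.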

How the data were processed

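Single-cell RNA libraries from digested mouse Achilles tendon gave the counts: 4 matrices of UMI counts per gene and barcode, which the authors deposited after Cell Ranger 8.0.1, per the file headers, on GRCm39, per the submitters' processing notes. Barcodes had to reach 500 genes and 1000 UMIs, with a mitochondrial share no higher than 15%. Doublets called by Scrublet were removed at 0.8% per 1000 barcodes. Cells were clustered with scanpy 1.11.5 (2000 variable genes without the receptors and their partners, 30 components, 15 neighbours, Leiden resolution 1) and named from marker lists. The thresholds of the naming were set after the data were seen, and the members and lists were chosen with earlier results of these data known.

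UMIs were summed per class and library and given as CPM with exact Poisson intervals, shares of cells with exact binomial intervals (Clopper-Pearson). Log2 ratios of CPM, with 0.5 counts added, had exact binomial intervals (scipy 1.17.1), and differences between ratios had intervals from a normal approximation of log counts. All intervals are at 95% and cover counting error only. With 1 library per group no p-value was computed. A gene was called apart at 2-fold among genes with at least 50 UMIs over both libraries, in classes with at least 100 cells in each. Genes were named by these rules: every family gene at 10 CPM or more in a named class of at least 50 cells, every family gene called apart, and the partners called apart. The script for the ratios was tested on simulated counts. Barcodes per library numbered 5003 to 16327 and UMIs 68644322 to 128626912. Alternatives were a stricter filter, doublets kept, resolution 2, cells gated singly, thinning, other UMI minimums, centred ratios, the mean of single-cell CPM, tenocyte-like or fibroblast-like cells alone, Y-linked cells alone and, added after seeing the data, single clusters.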

Additional observations from a re-analysis of the deposited data

Results flagged for a closer look

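Of 41 pairs of injury ratios, 19 had opposite signs at the 2 ages. In 2 of them both ratios were at least 0.5 on the log2 scale and both counting intervals lay clear of 0. No share over all genes stands beside these counts, so they are not read as a result about the family. Each age is 1 library against 1 library, so the difference was not tested and its interval covers counting error only.

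Adgrl4 in endothelial-like cells was lower with injury in adults, at a log2 ratio of -0.61, and higher with injury in neonates, at 0.64. The difference, adult minus neonate, was -1.25. Within cluster 0, led by Prnd and Gpihbp1, the ratio was -0.41 [-0.52, -0.31] in adults and 0.67 [0.60, 0.74] in neonates, and in cluster 2 it was -0.17 [-0.27, -0.068] in adults.

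Adgrf5 in the fibroblast lineage was higher with injury in adults, at 0.67, from 329 and 216 UMIs in adult injury and adult control cells. In neonates it was lower, at -0.67, from 117 and 199 UMIs in neonate injury and neonate control cells. The difference was 1.33. Its levels there, 7.42 CPM, 4.68 CPM, 2.15 CPM and 3.43 CPM in adult injury, adult control, neonate injury and neonate control cells, were far below those of endothelial-like cells. The 8 endothelial markers summed to 44.2, 31.9, 44.8 and 26.8 CPM in the lineage in the same order, and their part was not tested.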

How the results depend on the processing

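No paired analysis was possible because there was 1 library per group and the labels give no replicate numbers. For the same reason no library could be left out. Of 502 alternative values for 51 ratios of named genes, 413 stayed within the counting interval, 84 moved outside it and 5 reversed. The 413 include 51 values at a minimum of 20 UMIs and 51 with no minimum. These could not move, since a minimum selects genes and leaves a ratio unchanged. With a stricter cell filter all 51 stayed, and after thinning to 2000 UMIs 30 stayed and 21 moved. In tenocyte-like cells alone 7 stayed, 8 moved and 2 reversed. Adgrl3 in endothelial-like cells of adult against neonate control turned to -4.60 at resolution 2 and -0.24 with the mean of single-cell CPM. Adgrd1 in mural-like cells turned to -0.70 in the same comparison with cells gated singly. In tenocyte-like cells alone, adult injury against adult control turned to -1.47 for Adgrb3 and -1.22 for Adgrl3. Of 39 values within single clusters, 14 stayed within the counting interval, 24 moved outside it and 1 reversed. The reversed one was Adgrl3 in cluster 17 of the adult fibroblast lineage, at -3.51. By the looser rule of 2-fold or more in the same direction, 27 of the 39 held. The causes were not tested.

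The UMI minimum and thinning change by construction how many genes are compared. The counts below come without the number of genes compared or the share of all genes under each setting. They show how the calls depend on the setting and are not read against a background. Of the family genes, adult against neonate control gave 3 apart by 2-fold in macrophage-like cells, 13 with no minimum and 5 with doublets kept. It gave 5 in endothelial-like cells, 13 with no minimum and 2 after thinning, and 3 in mural-like cells, 7 with no minimum, 5 when gated and 1 after thinning. Adult injury gave 8 in the fibroblast lineage, 13 with no minimum and 4 after thinning. It gave 4 in macrophage-like cells, 8 at 20 UMIs, 13 with no minimum, 9 with doublets kept, 12 when gated and 2 after thinning. It gave 5 in endothelial-like cells, 13 with no minimum and 2 after thinning, and 4 in mural-like cells, 11 with no minimum and 8 when gated. Neonate injury gave 3 in the fibroblast lineage, 5 at 20 UMIs and with no minimum, 6 with doublets kept, 1 in tenocyte-like cells alone, and 0 after thinning and in Y-linked cells. It gave 1 in macrophage-like cells, 3 at 20 UMIs, 6 with no minimum, 2 in Y-linked cells and 0 after thinning. It gave 2 in endothelial-like cells, 4 at 20 UMIs, 10 with no minimum, 0 when gated, and 1 when centred, at resolution 2, by single-cell CPM and after thinning. It gave 1 in mural-like cells, 8 with no minimum, and 2 at 20 UMIs, with doublets kept, by single-cell CPM and after thinning. It gave 3 in Schwann-like cells, 5 at 20 UMIs and 12 with no minimum, and 3 in myogenic progenitor-like cells, 10 with no minimum and 1 after thinning. The difference of injury ratios gave 24, 57 with no minimum and 12 after thinning.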
